A study of Drosophila melanogaster with 27 samples.

Results

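Translation initiation, elongation and release factors are the proteins that bring ribosomes to mRNA, move them along it and free the finished chain. Their transcripts were compared in the heads of old and young Drosophila melanogaster. They were chosen by name, as the genes whose symbol begins with eIF, eEF, eRF, Ef1 or EF2, plus pAbp, Tctp and Rack1. This gave 53 of the 11923 genes in the table, of which 47 reached a mean of 1 FPKM and were tested. FPKM are sequenced fragments scaled for gene length and library depth, so levels can be set side by side between genes. Both groups were Oregon-R females, a common wild-type stock, reared at 25 °C on standard food, with 20 heads pooled per sample. One group was 50 days old (n = 3) and the other 3 days old (n = 3), and the labels name no transgene, drug or test diet for either. The series holds 27 samples in 9 groups, of which the 21 samples of the diet and fat body experiments were not analysed here. Its title links the mTORC1 growth pathway to the translation of TOP mRNAs, whose leaders begin with a pyrimidine tract, and in mammals many elongation factors, pAbp, Tctp and Rack1 are encoded by such mRNAs. What was measured is the amount of each transcript, not its translation.

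In initiation, eIF2 carries the initiator tRNA to the small ribosomal subunit and eIF2B recharges it with GTP. The eIF3 complex is the scaffold on that subunit, while eIF4E binds the mRNA cap, eIF4A unwinds the leader and the poly(A)-binding protein pAbp holds the tail. Elongation runs on eEF1, which delivers aminoacyl-tRNA, and eEF2, which moves the ribosome by a codon. At a stop codon eRF1 reads the signal with the help of the GTPase eRF3. Activity of many of these proteins is set by phosphorylation, which RNA levels do not show.

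Markers of the head were present in every library. The 5 photoreceptor markers summed to between 16439 and 21120.0 FPKM in 50-day heads and between 20061 and 23465 FPKM in 3-day heads. The 5 neuronal markers summed to 261 to 321 FPKM in 50-day heads and to 384 to 457 FPKM in 3-day heads. Markers were called at an adjusted p under 0.05, as were 18.3% of all genes tested for higher and 20.8% for lower levels at 50 days. Of 5 neuronal markers 4 were lower at 50 days, as were 4 of 5 muscle markers (616 to 797 FPKM in 50-day heads, against 1175 to 1901 FPKM in 3-day heads). Of 6 fat body markers 5 were higher (36554 to 62250.0 FPKM at 50 days and 13208 to 29229 FPKM at 3 days). Photoreceptor genes were lower in 2 of 5. Of 5 glial markers 1 was higher and 2 were lower (571 to 628 FPKM at 50 days and 798 to 923 FPKM at 3 days), and of 4 hemocyte markers tested 2 were lower (33.5 to 46.1 FPKM at 50 days and 50.9 to 96.4 FPKM at 3 days). The 5 ovary germline markers were each at or under 0.161 FPKM in every library. The testis list had 4 genes in the table, of which bol was lower at 50 days and dj, Mst87F and can were each under 1 FPKM. In whole heads, fewer cells of a type and less RNA per cell cannot be told apart, and the part of these cell types in the results below was not tested.

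Of the 47 factors tested, 17 differed between the ages at an adjusted p under 0.05, which is 36.2% and near the 39.1% of all 8742 genes tested. Higher at 50 days were 12 factors (25.5%, against 18.3% of all genes) and lower were 5 (10.6%, against 20.8% of all genes). The median log2 change of the 47 was 0.07, against -0.0011 over all genes. In 26 factors (55.3%) the scaled values of the ages did not overlap, as in 54.3% of all genes. Of the 47 factors tested, 18 lay higher at 50 days without overlap, as did 26.0% of all genes tested. Another 8 of the 47 lay lower without overlap, as did 28.3% of all genes tested. Most changes were small: 16 of the 17 lay between -0.75 and 0.57 on the log2 scale, and eIF4E6 stood at 1.75. The direction of small changes rests on the scaling between libraries. A trimmed-mean factor per library was used, which sets the bulk of genes to no change. With the deposited values left unscaled, 13 factors were called, 6 higher and 7 lower. Rescaling each library to the same sum moved the median of all genes to -0.26 and gave 17 calls, 1 higher (eIF4E6) and 16 lower. Under that scaling the median log2 change became negative for the start codon factors (-0.17), eIF2B (-0.02), the cap-binding class (-0.16) and the release factors (-0.24, and -0.07 with unscaled values). Of the 17 factors, 5 were called in every alternative fit that tested them, namely eIF3k, eIF3l, eIF4E6, eIF4EHP and eEF1alpha2. The number of called factors was 10 without 50-day replicate 1, and between 12 and 21 without each of the other libraries.

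**Figure D1:**
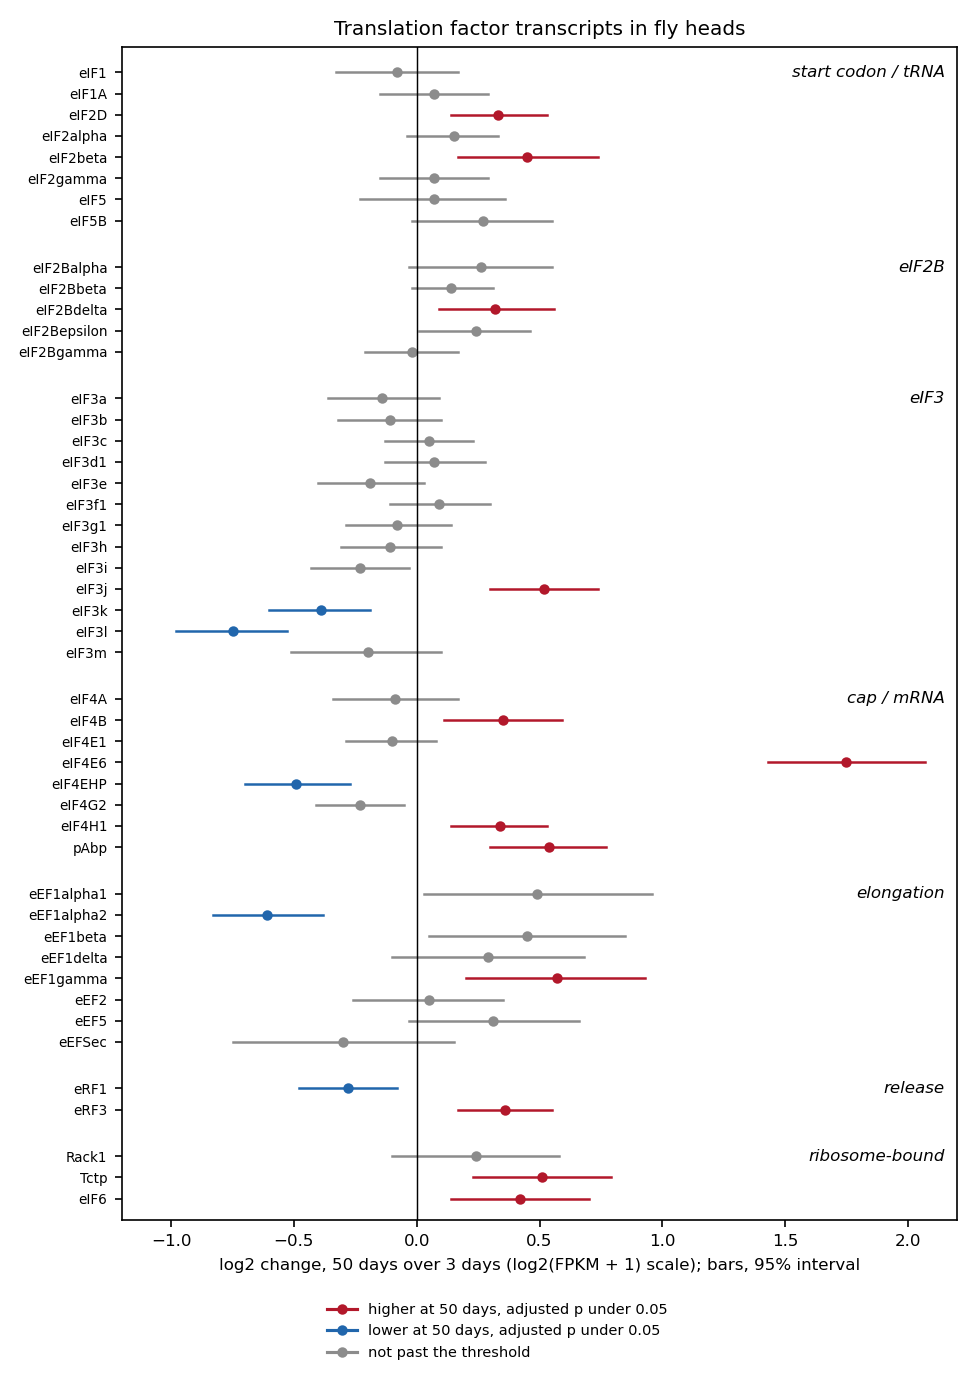
Log2 change of each tested factor transcript, 50 days over 3 days, with its 95% interval from limma, grouped by the step of translation. Red points are higher and blue points lower at an adjusted p under 0.05, and eIF4E6 at 1.75 and eIF3l at -0.75 are the ends of the range.

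The cap-binding and mRNA activation factors held 5 of the 17 called transcripts. Of 12 in the table, 8 were tested, of which 4 rose, 1 fell and 3 did not pass (62.5% called, against 39.1% of all genes). Their median log2 change was 0.12, but -0.05 when low genes were kept and -0.09 when a mean of 5 FPKM was required. The eIF4E paralogue eIF4E6 rose most among all 47 factors. It had 5.07, 4.92 and 6.31 FPKM in 50-day heads, against 1.06, 0.738 and 1.23 FPKM in 3-day heads. Every old library was above every young one, by a ratio of scaled means of 5.77 (log2 change 1.75, SE 0.14, limma adjusted p 0.000112). On the BDGP6.54 annotation it is a protein-coding gene on the minus strand of chromosome arm 3R, bases 29026439 to 29027174, with 3 transcripts and a joint exon length of 686 bp, and its exons overlap no other gene. With a pseudocount of 0.1 in place of 1 its log2 change was 2.44, adjusted p 0.000158, since its 3-day level lies near the pseudocount. Its 3-day mean of 1.01 FPKM also lies at the cut-off for testing. The cut-off applied to the mean of all libraries, so eIF4E6 was tested mainly because of its 50-day level. The main cap-binding protein, eIF4E1, was far more abundant, at 81.5 ± 3.50 FPKM in 50-day heads and 94.5 ± 5.09 FPKM in 3-day heads (SD, n = 3 each). The ratio of eIF4E6 to eIF4E1 within a library was 0.0647, 0.0577 and 0.0779 in 50-day heads, against 0.0118, 0.00739 and 0.0131 in 3-day heads. The change of eIF4E1 itself did not pass (log2 change -0.10, adjusted p 0.342), although the scaled values of the ages did not overlap. eIF4E1 passed with every library rescaled to the same sum (0.0214), with adjusted p 0.0214 to 0.616 over 14 alternatives. The paralogues eIF4E3, eIF4E4 and eIF4E7 were at or under 0.182 FPKM in every library, as was eIF4H2, and these 4 were not tested.

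The cap-binding repressor eIF4EHP, which holds the cap without recruiting eIF4G, moved the other way. It had 19.7, 23.5 and 22.8 FPKM in 50-day heads, against 37.5, 32.7 and 30.9 FPKM in 3-day heads. The groups did not overlap, and it fell with a ratio of scaled means of 0.702 (log2 change -0.49, SE 0.09, limma adjusted p 0.0047). Its ratio to eIF4E1 was 0.252, 0.276 and 0.282 in 50-day heads, against 0.419, 0.328 and 0.328 in 3-day heads. It lies on chromosome arm 3R, bases 24063077 to 24108960, and 447 bp (6.96%) of its exons are shared on the same strand with Syx1A, a synaptic syntaxin gene that itself averaged 18.4 FPKM in 50-day heads and 22.7 FPKM in 3-day heads (log2 change -0.16, adjusted p 0.562). At 50 days 4 of 5 neuronal markers were lower, but so were 4 of 5 muscle and 2 of 5 photoreceptor markers. Lower too were 2 of 5 glial and 2 of 4 tested hemocyte markers, while 1 glial and 5 of 6 fat body markers were higher. The part of any cell type in the fall of eIF4EHP was not tested.

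The poly(A)-binding protein transcript pAbp was high at both ages and rose. Its level was 329, 311 and 329.5 FPKM in 50-day heads, against 239, 254 and 228 FPKM in 3-day heads. All old libraries lay above all young ones (log2 change 0.54, SE 0.10, limma adjusted p 0.00494). The pAbp call did not hold with every library rescaled to the same sum (0.125), with adjusted p 0.00202 to 0.125 over 14 alternatives. The helicase eIF4A, the most abundant transcript of this class, had 461, 481 and 512 FPKM in 50-day heads, against 514, 562 and 590.4 FPKM in 3-day heads. It did not pass (log2 change -0.09, adjusted p 0.572, 95% interval -0.34 to 0.17), and the groups overlapped in scaled values. The ratio of pAbp to eIF4A within a library was 0.714, 0.646 and 0.644 in 50-day heads, against 0.466, 0.452 and 0.385 in 3-day heads. eIF4A passed with every library rescaled to the same sum (0.0247), with adjusted p 0.0247 to 0.8 over 14 alternatives.

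The RNA-binding cofactors of eIF4A, eIF4H1 and eIF4B, also rose. The more abundant, eIF4H1, had 51.6, 50.7 and 52.7 FPKM in 50-day heads, against 43.7, 47.4 and 40.9 FPKM in 3-day heads, with no overlap between the ages (log2 change 0.34, SE 0.08, limma adjusted p 0.0152). The eIF4H1 call did not hold with the deposited values left unscaled (0.0752) or every library rescaled to the same sum (0.749), with adjusted p 0.00391 to 0.749 over 14 alternatives. The other, eIF4B, was low, at 3.96, 4.74 and 4.26 FPKM in 50-day heads, against 3.55, 3.05 and 3.74 FPKM in 3-day heads. Its deposited values separated the ages by a small gap (log2 change 0.35, SE 0.10, limma adjusted p 0.0303). The eIF4B call did not hold without 50-day replicate 1 (0.0691), 50-day replicate 2 (0.105), 50-day replicate 3 (0.0612) or 3-day replicate 2 (0.0919) or with the deposited values left unscaled (0.111), every library rescaled to the same sum (0.541) or the replicate block (0.0813), with adjusted p 0.0235 to 0.541 over 13 alternatives. The eIF4G paralogue eIF4G2, needed in the fly for male meiosis, was lower in each old library, at 8.70, 9.51 and 10.3 FPKM in 50-day heads, against 12.9, 12.3 and 11.4 FPKM in 3-day heads, but did not pass (log2 change -0.23, adjusted p 0.0519). eIF4G2 passed without 3-day replicate 3 (0.0292) or with the deposited values left unscaled (0.0261), every library rescaled to the same sum (0.0144) or a mean of at least 5 FPKM required (0.0483), with adjusted p 0.0144 to 0.42 over 14 alternatives. It shares 779 bp (8.56%) of its exons on the same strand with CG33111.

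**Figure D2:**
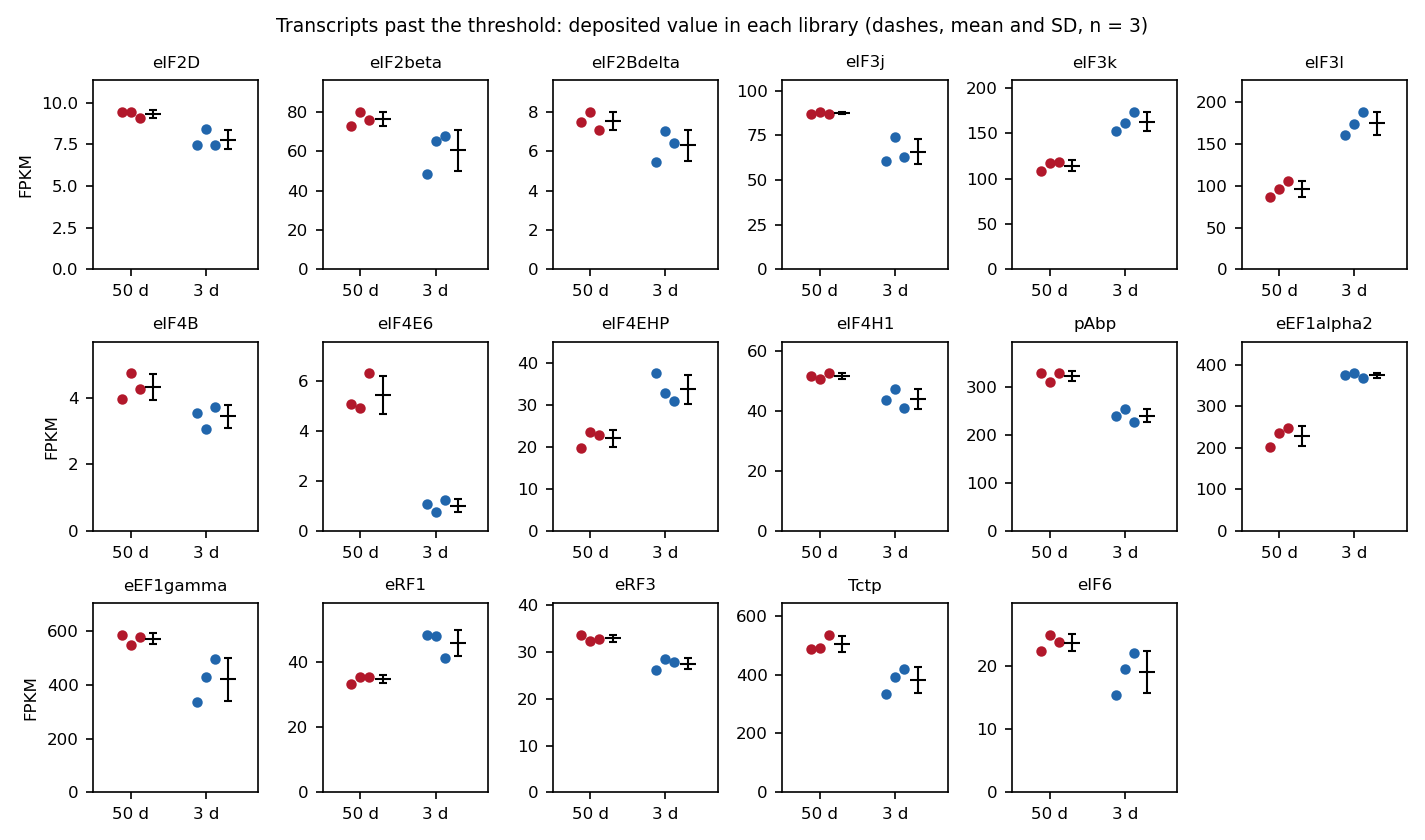
Deposited FPKM of the 17 transcripts past the threshold in each library, 50-day heads on the left (red) and 3-day heads on the right (blue), with the mean and SD of 3 libraries. In eIF4E6 the old libraries reach 4.92 to 6.31 FPKM and the young ones 0.738 to 1.23 FPKM, while the means in the other panels differ by less than 2-fold.

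The eIF3 complex did not move as a unit. The table has 15 subunit genes, of which 13 were tested. Of these 1 rose, 2 fell and 10 did not pass (23.1% called, against 39.1% of all genes), and the median log2 change was -0.11. The second copies eIF3f2 and eIF3g2 were at or under 0.207 FPKM and not tested. Subunit eIF3l fell most of all 47 factors, with 86.0, 95.6 and 105 FPKM in 50-day heads, against 160.4, 174 and 188 FPKM in 3-day heads. Old and young libraries were far apart, at a ratio of scaled means of 0.590 (log2 change -0.75, SE 0.10, limma adjusted p 0.000822). It is encoded on chromosome arm 3L, bases 12143446 to 12146097, with 1 annotated transcript. Subunit eIF3k, which binds eIF3l at the edge of the mammalian complex, fell too. It had 108, 117 and 118 FPKM in 50-day heads, against 153, 161 and 174 FPKM in 3-day heads, again without overlap (log2 change -0.39, SE 0.09, limma adjusted p 0.00905). Both calls held in all 14 alternatives.

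Subunit eIF3j, a loosely held part of the complex that binds near the decoding site, was the one that rose. It had 87.2, 88.3 and 87.2 FPKM in 50-day heads, against 60.9, 73.8 and 62.7 FPKM in 3-day heads. The old libraries were almost equal and all above the young ones (log2 change 0.52, SE 0.09, limma adjusted p 0.00382). The eIF3j call did not hold with every library rescaled to the same sum (0.15), with adjusted p 0.00359 to 0.15 over 14 alternatives. Among the rest, eIF3i was lower in every old library, at 97.7 ± 3.38 FPKM in 50-day heads and 124 ± 6.10 FPKM in 3-day heads (SD, n = 3 each), and did not pass (log2 change -0.23, adjusted p 0.065). eIF3i passed with the deposited values left unscaled (0.0185), every library rescaled to the same sum (0.00308), no filter on low values (0.0481) or the length trend removed (0.0116), with adjusted p 0.00308 to 0.211 over 14 alternatives.

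The other 10 subunits did not pass, eIF3i among them. The largest subunit, eIF3a, was at 39.7 ± 2.07 FPKM in 50-day heads and 47.3 ± 5.23 FPKM in 3-day heads (SD, n = 3 each; log2 change -0.14, adjusted p 0.293, 95% interval -0.36 to 0.09). eIF3a passed without 3-day replicate 3 (0.0479) or with every library rescaled to the same sum (0.032), with adjusted p 0.032 to 0.686 over 14 alternatives. Subunit eIF3b, which binds eIF3a, was at 116 ± 6.68 FPKM in 50-day heads and 135 ± 2.47 FPKM in 3-day heads (SD, n = 3 each; log2 change -0.11, adjusted p 0.371, 95% interval -0.32 to 0.10), and eIF3c at 58.1 ± 2.29 FPKM in 50-day heads and 60.6 ± 3.40 FPKM in 3-day heads (SD, n = 3 each; log2 change 0.05, adjusted p 0.655). The most abundant subunit over the 6 libraries, eIF3f1, had 150.2, 165 and 168 FPKM in 50-day heads, against 151, 166 and 172 FPKM in 3-day heads, and the ages overlapped (log2 change 0.09, adjusted p 0.445). The subunit eIF3d1, which can bind the cap in human cells, was at 52.5 ± 1.82 FPKM in 50-day heads and 53.8 ± 2.62 FPKM in 3-day heads (SD, n = 3 each; log2 change 0.07, adjusted p 0.538). The other subunits eIF3e, eIF3g1, eIF3h and eIF3m were at -0.19, -0.08, -0.11 and -0.20 on the log2 scale, at adjusted p of 0.149, 0.537, 0.363 and 0.251. Relative to eIF3b in the same library, eIF3l was 0.737, 0.882 and 0.863 in 50-day heads, against 1.21, 1.27 and 1.40 in 3-day heads, so that it exceeded eIF3b in each young library and fell short of it in each old one. Rescaling to the same sum called 9 subunits in place of 3, and removing the length trend called 5. In 11 of the 13 subunits, 3-day replicate 1 had the lowest scaled value of its age, against 34.0% of all genes. It held for 28 of the 47 factors tested, with these 11 among them. The other classes had 4 of 8 start codon factors, 2 of 5 eIF2B subunits and 2 of 8 cap-binding factors. They also had 5 of 8 elongation factors, 1 of 2 release factors and 3 of 3 ribosome-associated factors.

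**Figure D3:**
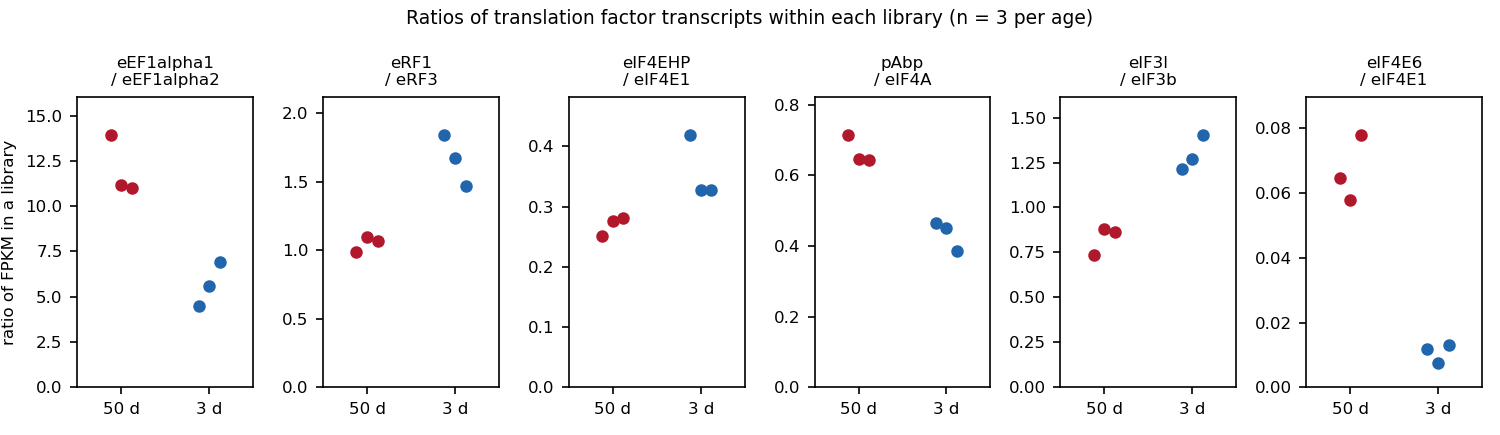
Ratio of the FPKM of 2 transcripts within each library, for 6 pairs, with 50-day heads (red) left of 3-day heads (blue). The pairs were chosen after their values were seen and carry no test, and in each of them the 3 old libraries lie apart from the 3 young ones, as for eEF1alpha1 over eEF1alpha2 (at least 11.0 in 50-day heads and at most 6.93 in 3-day heads).

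The elongation factors were the most abundant class, with summed levels of 6541, 6298 and 6456 FPKM in 50-day heads, against 4801, 5544 and 6414 FPKM in 3-day heads. The young libraries were spread more widely than the old ones. All 8 were tested, 1 rose, 1 fell and 6 did not pass (25.0% called, against 39.1% of all genes), with a median log2 change of 0.30. The paralogues of eEF1alpha, the GTPase that brings aminoacyl-tRNA to the ribosome, had log2 changes of opposite sign. The minor one, eEF1alpha2, had 201, 236 and 248 FPKM in 50-day heads, against 375, 379.6 and 367 FPKM in 3-day heads. It fell without overlap, at a ratio of scaled means of 0.657 (log2 change -0.61, SE 0.10, limma adjusted p 0.00218), in the fit reported and in all 14 alternatives. The major one, eEF1alpha1, the most abundant of the 53 factors, had 2800.4, 2636 and 2725 FPKM in 50-day heads, against 1679, 2116 and 2542 FPKM in 3-day heads. Each old library was above each young one, but the young libraries were spread widely and the change did not pass (log2 change 0.49, SE 0.20, limma adjusted p 0.0867, 95% interval 0.03 to 0.96). eEF1alpha1 passed without 3-day replicate 3 (0.0259) or with no mean-variance trend (0.0364), with adjusted p 0.0259 to 0.243 over 14 alternatives. Within a library the ratio of eEF1alpha1 to eEF1alpha2 was 13.9, 11.2 and 11.0 in 50-day heads, against 4.47, 5.58 and 6.93 in 3-day heads. Both genes encode closely related proteins, and how fragments shared between them were counted is not given in the sources used here, so the split between them is uncertain. In the same libraries 4 of 5 muscle and 4 of 5 neuronal markers were lower at 50 days, while 5 of 6 fat body markers were higher. Some glial, photoreceptor and hemocyte markers were lower too. The part of these cell types in the change of eEF1alpha2 was not tested.

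The remaining eEF1 subunits recharge eEF1alpha with GTP, and their log2 changes were positive, with a wide spread at 3 days. The structural subunit eEF1gamma rose, with 586, 548 and 577 FPKM in 50-day heads, against 336, 428 and 493 FPKM in 3-day heads. The old libraries were close together and above all young ones (log2 change 0.57, SE 0.16, limma adjusted p 0.023). The eEF1gamma call did not hold without 50-day replicate 1 (0.0723), 50-day replicate 3 (0.0551), 3-day replicate 1 (0.0524) or 3-day replicate 2 (0.0633) or with every library rescaled to the same sum (0.0882) or the replicate block (0.0593), with adjusted p 0.00922 to 0.0882 over 14 alternatives. The exchange subunit eEF1beta had 665 ± 25.4 FPKM in 50-day heads and 533 ± 120.3 FPKM in 3-day heads (SD, n = 3 each) and did not pass (log2 change 0.45, adjusted p 0.0713). eEF1beta passed without 3-day replicate 3 (0.0153), with adjusted p 0.0153 to 0.35 over 14 alternatives. Its partner eEF1delta had 161 ± 20.0 FPKM in 50-day heads and 143 ± 27.0 FPKM in 3-day heads (SD, n = 3 each; log2 change 0.29, adjusted p 0.216). In eEF1alpha1, eEF1beta and eEF1gamma alike, 3-day replicate 1 was lowest and 3-day replicate 3 highest of its age. The fat body marker Yp1, chosen here after its values were seen, was lowest and highest in the same young libraries. It had 29025, 23192 and 18487 FPKM in 50-day heads, against 5843, 8103 and 13189.9 FPKM in 3-day heads. Of the other fat body markers, Yp2, Yp3 and fit had the same order at 3 days, and apolpp and Lsp2 did not. Lsp2 ran the other way, at 8.58, 6.67 and 4.83 FPKM in 3-day heads. Of the 6 fat body markers 5 were called higher at 50 days. The part of the fat body in the changes of this class and the others was not tested.

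The translocase eEF2 did not pass, at 1083 ± 24.3 FPKM in 50-day heads and 1131 ± 70.2 FPKM in 3-day heads (SD, n = 3 each; log2 change 0.05, adjusted p 0.8, 95% interval -0.26 to 0.35). The hypusine-bearing factor eEF5, also called eIF5A, which helps the ribosome join difficult residues, had 1066, 981 and 962 FPKM in 50-day heads, against 799.7, 839 and 977 FPKM in 3-day heads. It did not pass (log2 change 0.31, adjusted p 0.131), although the scaled values of the ages did not overlap. The selenocysteine factor eEFSec was the rarest tested elongation factor, at 1.61 ± 0.697 FPKM in 50-day heads and 2.29 ± 0.233 FPKM in 3-day heads (SD, n = 3 each; log2 change -0.30, adjusted p 0.264). Its log2 change was -0.09 without 50-day replicate 3 and -0.48 without 50-day replicate 2.

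**Figure D4:**
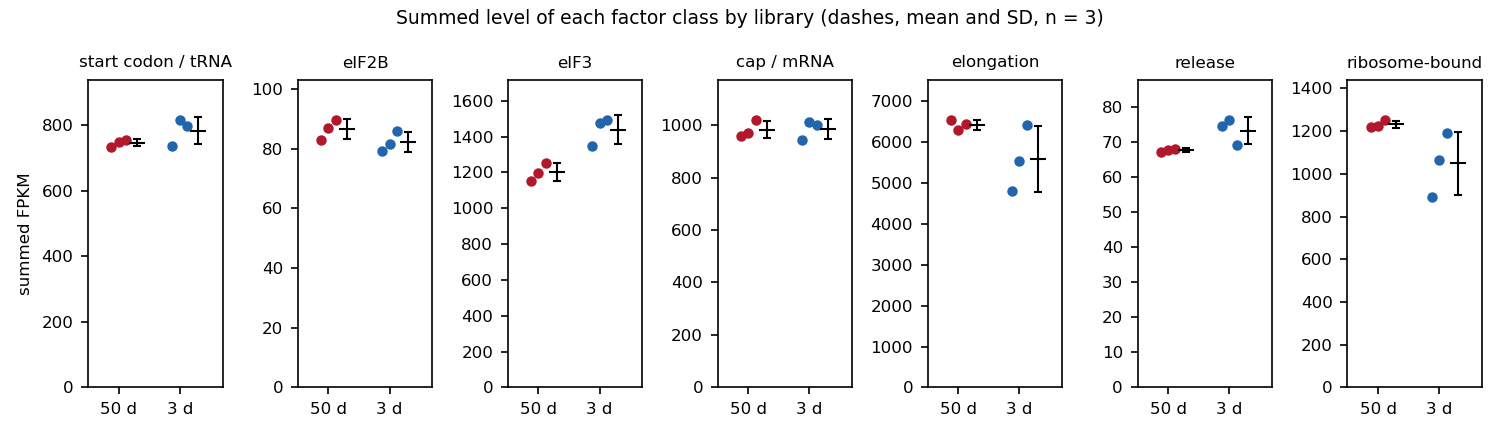
Summed FPKM of all factors of each class in each library, 50-day heads (red) left of 3-day heads (blue), with the mean and SD of 3 libraries. The eIF3 sum is lower in each old library (1152 to 1255 FPKM) than in each young one (1349 to 1492 FPKM), and in the elongation and ribosome-bound classes the young libraries spread widely.

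The pair of release factors changed in opposite directions, and 2 of 2 were called (100%, against 39.1% of all genes). The stop codon reader eRF1 had 33.3, 35.4 and 35.2 FPKM in 50-day heads, against 48.2, 47.7 and 41.0 FPKM in 3-day heads. It fell, with no overlap between the ages (log2 change -0.28, SE 0.09, limma adjusted p 0.0327). The eRF1 call did not hold without 50-day replicate 1 (0.059), 50-day replicate 2 (0.0942), 50-day replicate 3 (0.0965), 3-day replicate 1 (0.121) or 3-day replicate 2 (0.102) or with the replicate block (0.0674), with adjusted p 0.00546 to 0.121 over 14 alternatives. Its GTPase partner eRF3 had 33.7, 32.3 and 32.8 FPKM in 50-day heads, against 26.2, 28.5 and 27.9 FPKM in 3-day heads. It rose, also without overlap (log2 change 0.36, SE 0.08, limma adjusted p 0.00991). The eRF3 call did not hold with every library rescaled to the same sum (0.603), with adjusted p 0.00643 to 0.603 over 14 alternatives. The ratio of eRF1 to eRF3 was 0.986, 1.10 and 1.07 in 50-day heads, against 1.84, 1.68 and 1.47 in 3-day heads, which is near equal amounts in old heads and an excess of eRF1 in young ones. Of the exons of eRF1, 189 bp (6.07%) are shared on the same strand with CG5618 (log2 change -0.13, adjusted p 0.609).

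Among the 8 start codon and initiator tRNA factors 2 rose and 6 did not pass (25.0% called, against 39.1% of all genes), with a median log2 change of 0.11. Of the eIF2 subunits only eIF2beta was called, with 72.9, 80.2 and 76.1 FPKM in 50-day heads, against 48.7, 65.1 and 67.6 FPKM in 3-day heads. The groups did not overlap, and 3-day replicate 1 was well below the other young libraries (log2 change 0.45, SE 0.12, limma adjusted p 0.0219). The eIF2beta call did not hold without 50-day replicate 1 (0.0605) or 50-day replicate 2 (0.0666) or with the deposited values left unscaled (0.0601) or every library rescaled to the same sum (0.299), with adjusted p 0.0134 to 0.299 over 14 alternatives. The regulated subunit eIF2alpha, whose phosphorylation slows initiation under stress, was at 38.9 ± 2.38 FPKM in 50-day heads and 37.8 ± 2.77 FPKM in 3-day heads (SD, n = 3 each; log2 change 0.15, adjusted p 0.181). The GTP-binding subunit eIF2gamma was at 43.2 ± 1.77 FPKM in 50-day heads and 44.3 ± 4.04 FPKM in 3-day heads (SD, n = 3 each; log2 change 0.07, adjusted p 0.568), and 352 bp (16.0%) of its exons belong on the same strand to Su(var)3-9. Whether the change of eIF2beta differs from those of its partners was not tested.

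The other called factor of this class was eIF2D, which in mammalian systems can deliver initiator tRNA without eIF2. It had 9.43, 9.47 and 9.06 FPKM in 50-day heads, against 7.45, 8.45 and 7.45 FPKM in 3-day heads, with no overlap between the ages (log2 change 0.33, SE 0.08, limma adjusted p 0.0157). The eIF2D call did not hold without 50-day replicate 1 (0.0569) or with the deposited values left unscaled (0.076) or every library rescaled to the same sum (0.673), with adjusted p 0.0153 to 0.673 over 14 alternatives. The start codon selection factor eIF1, the most abundant of the class, had 367, 365 and 374 FPKM in 50-day heads, against 386, 437 and 439 FPKM in 3-day heads, with overlap in scaled values (log2 change -0.08, adjusted p 0.602). eIF1 passed with every library rescaled to the same sum (0.0241), with adjusted p 0.0241 to 0.814 over 14 alternatives. Its partner eIF1A was at 164 ± 2.75 FPKM in 50-day heads and 169 ± 12.4 FPKM in 3-day heads (SD, n = 3 each; log2 change 0.07, adjusted p 0.579). The subunit-joining GTPase eIF5B was at 18.1 ± 0.308 FPKM in 50-day heads and 16.2 ± 2.79 FPKM in 3-day heads (SD, n = 3 each; log2 change 0.27, adjusted p 0.123). eIF5B passed with the length trend removed (0.0249), with adjusted p 0.0249 to 0.987 over 14 alternatives. The GTPase activator eIF5 was at 26.1 ± 3.18 FPKM in 50-day heads and 27.0 ± 4.48 FPKM in 3-day heads (SD, n = 3 each; log2 change 0.07, adjusted p 0.715), and its value is uncertain because 2588 bp (80.8%) of its exons are annotated on the same strand to CG46312 as well.

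Of the 5 subunits of eIF2B, 1 rose and 4 did not pass (20.0% called, against 39.1% of all genes). The subunit that rose was eIF2Bdelta, of the regulatory part, with 7.49, 8.01 and 7.09 FPKM in 50-day heads, against 5.47, 7.04 and 6.42 FPKM in 3-day heads. The groups were separate by a narrow gap (log2 change 0.32, SE 0.10, limma adjusted p 0.0375). The eIF2Bdelta call did not hold without 50-day replicate 1 (0.115), 50-day replicate 2 (0.112), 3-day replicate 1 (0.0887) or 3-day replicate 3 (0.0516) or with the deposited values left unscaled (0.137), every library rescaled to the same sum (0.695), no filter on low values (0.0648) or the replicate block (0.0769), with adjusted p 0.0337 to 0.695 over 14 alternatives. The most abundant subunit over the 6 libraries, eIF2Balpha, had 26.9, 24.4 and 32.4 FPKM in 50-day heads, against 23.2, 23.0 and 28.6 FPKM in 3-day heads, with overlap (log2 change 0.26, adjusted p 0.142). eIF2Balpha passed without 3-day replicate 3 (0.0498), with adjusted p 0.0498 to 0.929 over 14 alternatives. The catalytic subunit eIF2Bepsilon was at 8.36 ± 0.812 FPKM in 50-day heads and 7.50 ± 0.764 FPKM in 3-day heads (SD, n = 3 each; log2 change 0.24, adjusted p 0.0921). The catalytic partner eIF2Bgamma did not pass (log2 change -0.02, adjusted p 0.872), nor did the regulatory subunit eIF2Bbeta (log2 change 0.14, adjusted p 0.155).

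The 3 factors bound to ribosomal subunits or to elongation factors all had positive changes, apart from Rack1 at -0.05 with every library rescaled to the same sum. Of the 3 factors, 2 passed (66.7% called, against 39.1% of all genes). Tctp, a growth regulator that binds the mTORC1 activator Rheb in the fly, had 487, 490.2 and 536 FPKM in 50-day heads, against 334, 393 and 419 FPKM in 3-day heads. All old libraries exceeded all young ones (log2 change 0.51, SE 0.12, limma adjusted p 0.012). The Tctp call did not hold with every library rescaled to the same sum (0.148), with adjusted p 0.00678 to 0.148 over 14 alternatives. The large-subunit factor eIF6, which keeps the subunits apart until release, had 22.3, 24.9 and 23.7 FPKM in 50-day heads, against 15.4, 19.4 and 22.0 FPKM in 3-day heads. The highest young library lay just below the lowest old one (log2 change 0.42, SE 0.12, limma adjusted p 0.0252). The eIF6 call did not hold without 50-day replicate 1 (0.0662), 50-day replicate 2 (0.0747), 50-day replicate 3 (0.0502) or 3-day replicate 2 (0.0608) or with the deposited values left unscaled (0.0738) or every library rescaled to the same sum (0.379), with adjusted p 0.00696 to 0.379 over 14 alternatives. Rack1, a scaffold on the small subunit, had 710.5, 711 and 692 FPKM in 50-day heads, against 544, 652 and 749 FPKM in 3-day heads. The ages overlapped and it did not pass (log2 change 0.24, adjusted p 0.234, 95% interval -0.10 to 0.58).

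**Figure D5:**
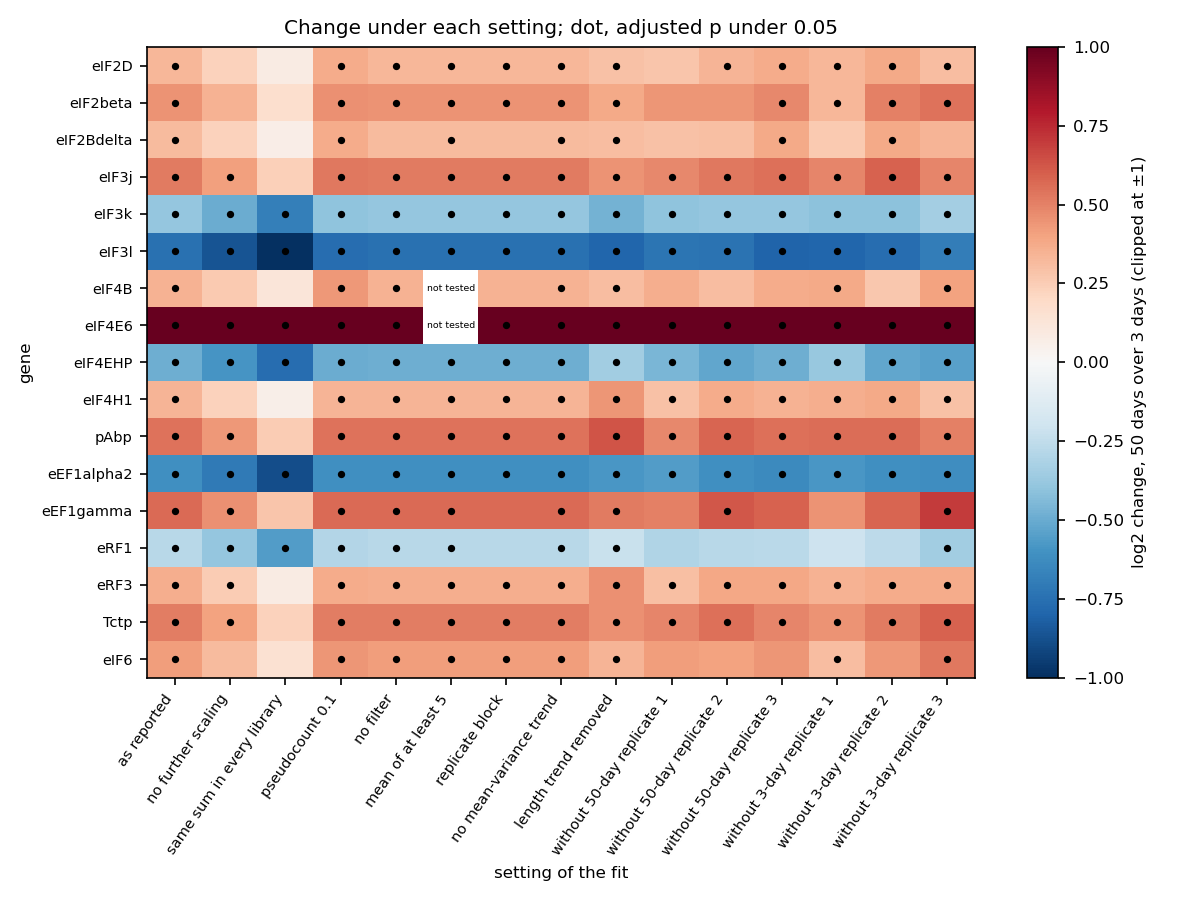
Log2 change, 50 days over 3 days, of the 17 called transcripts (rows) in the fit as reported and in 14 alternatives (columns), with colours clipped at 1 in size and a dot where the adjusted p is under 0.05. The rows of eIF3k, eIF3l, eIF4E6, eIF4EHP and eEF1alpha2 have a dot in every fit that tested them, and the column with every library rescaled to the same sum has lost the dots of the other transcripts that rose.

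Genes that act on these factors or beside them were counted in 5 lists. Of 17 tested regulators of the factors 4 rose and 1 fell (29.4%, against 39.1% of all genes). Lk6, the fly kinase of eIF4E, rose to 335, 329.9 and 396 FPKM in 50-day heads, against 242, 250.3 and 201 FPKM in 3-day heads (log2 change 0.72, SE 0.12, limma adjusted p 0.0029), in all 14 alternatives too. Pdcd4, an inhibitor of eIF4A, was at 63.7 ± 2.38 FPKM in 50-day heads and 47.5 ± 4.10 FPKM in 3-day heads (SD, n = 3 each; log2 change 0.53, SE 0.09, limma adjusted p 0.00284). The Pdcd4 call did not hold with every library rescaled to the same sum (0.157), with adjusted p 0.00114 to 0.157 over 14 alternatives. The stress factor crc (fly ATF4) and the ribosomal S6 kinase gene S6k also passed, crc with a log2 change 0.39, adjusted p 0.0395, and S6k with a log2 change 0.35, adjusted p 0.0376. The crc call did not hold without 50-day replicate 1 (0.0595), 50-day replicate 2 (0.105), 50-day replicate 3 (0.104), 3-day replicate 2 (0.0926) or 3-day replicate 3 (0.069) or with the deposited values left unscaled (0.128), every library rescaled to the same sum (0.616), no filter on low values (0.0577) or the replicate block (0.0804), with adjusted p 0.0112 to 0.616 over 14 alternatives. The S6k call did not hold without 50-day replicate 1 (0.109), 50-day replicate 3 (0.0802), 3-day replicate 2 (0.0845) or 3-day replicate 3 (0.0877) or with the deposited values left unscaled (0.0938), every library rescaled to the same sum (0.709) or no filter on low values (0.0569), with adjusted p 0.00977 to 0.709 over 14 alternatives. The regulator that fell was orb2, a regulator of translation at synapses, at 13.1 ± 0.668 FPKM in 50-day heads and 17.6 ± 0.364 FPKM in 3-day heads (SD, n = 3 each; log2 change -0.30, adjusted p 0.0159). The orb2 call did not hold without 50-day replicate 2 (0.072) or with the length trend removed (0.284), with adjusted p 0.00266 to 0.284 over 14 alternatives. Thor, the fly eIF4E-binding protein, was at 408 ± 10.5 FPKM in 50-day heads and 471 ± 52.9 FPKM in 3-day heads (SD, n = 3 each) and did not pass (log2 change -0.09, adjusted p 0.568). Thor passed with every library rescaled to the same sum (0.0212), with adjusted p 0.0212 to 0.91 over 14 alternatives.

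Cytosolic tRNA synthetases charge the tRNAs that eEF1alpha delivers. Of 20 tested, 7 rose and 1 fell, with a median log2 change of 0.24. The share called was 40.0%, near the 39.1% of all genes. The largest change was that of AspRS, with 34.9, 36.0 and 36.4 FPKM in 50-day heads, against 20.8, 26.0 and 27.0 FPKM in 3-day heads (log2 change 0.64, SE 0.10, limma adjusted p 0.00234), which held in all 14 alternatives. GlnRS was at 14.1 ± 0.244 FPKM in 50-day heads and 9.96 ± 1.33 FPKM in 3-day heads (SD, n = 3 each; log2 change 0.57, adjusted p 0.00335), AlaRS at a log2 change of 0.44 (adjusted p 0.00761) and LeuRS at 0.43 (adjusted p 0.00556). With every library rescaled to the same sum their log2 changes were 0.31, adjusted p 0.0641 for GlnRS, 0.17, adjusted p 0.343 for AlaRS and 0.17, adjusted p 0.384 for LeuRS. TyrRS fell, at 24.7 ± 0.986 FPKM in 50-day heads and 34.9 ± 4.09 FPKM in 3-day heads (SD, n = 3 each; log2 change -0.37, adjusted p 0.0172). The TyrRS call did not hold without 50-day replicate 2 (0.0636), with adjusted p 0.000761 to 0.0636 over 14 alternatives.

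Of 9 mitochondrial translation factors 2 fell and the other 7 did not pass (22.2% called lower, against 20.8% of all genes). Those that fell were the mitochondrial elongation factors mEFTs (log2 change -0.27, adjusted p 0.0271) and mEFTu1 (log2 change -0.23, adjusted p 0.0473). The mEFTs call did not hold without 50-day replicate 2 (0.11), 50-day replicate 3 (0.0689), 3-day replicate 1 (0.0684) or 3-day replicate 2 (0.0974) or with the replicate block (0.0852), with adjusted p 0.00369 to 0.11 over 14 alternatives. The mEFTu1 call did not hold without 50-day replicate 2 (0.173), 50-day replicate 3 (0.117), 3-day replicate 1 (0.0972), 3-day replicate 2 (0.123) or 3-day replicate 3 (0.0689) or with the replicate block (0.119) or no mean-variance trend (0.0566), with adjusted p 0.00384 to 0.173 over 14 alternatives. Of 6 ribosome rescue and recycling genes only Clbn, which acts on stalled ribosomes, was called (log2 change 0.26, adjusted p 0.0273), which is 16.7%, against 39.1% of all genes. The Clbn call did not hold without 50-day replicate 1 (0.053), 50-day replicate 2 (0.0619), 50-day replicate 3 (0.106) or 3-day replicate 2 (0.0637) or with the deposited values left unscaled (0.22), every library rescaled to the same sum (0.995) or the replicate block (0.0835), with adjusted p 0.00457 to 0.995 over 14 alternatives. Of 3 tested enzymes that modify eEF5 or eEF2, 0 were called by limma (against 39.1% of all genes), and 1 had an unadjusted p under 0.05.

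No class or list was tested against another. The replicate spread was larger at 3 days for most factors. The SD of the scaled log2 values was larger in 3-day than in 50-day heads for 37 of the 47 factors, against 59.7% of all genes.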

How the data were processed

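Polyadenylated RNA of 6 pools of 20 female heads was measured, 3 at 50 days and 3 at 3 days of age, in biological triplicates per the labels' protocols. Libraries were paired-end. The authors deposited non-whole values per gene under a name that says counts, and they are read here as FPKM from their differing column sums. They could also be TPM computed with more genes, in which case levels carry a constant factor per library. Depth per library is unknown, so no counting intervals are given. Per the submitters' processing notes, fastp, HISAT2, HTSeq and the build BDGP6 were used, with roles and versions not given in the sources used here, likewise strand handling and shared fragments. Summed values ran from 504504 to 539645 FPKM at 50 days and from 427992 to 502587 FPKM at 3 days. All 6 columns were matched to samples by name, and 0 were left over.

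Libraries were scaled by trimmed-mean factors (genes above 1 FPKM, 30% of ratios and 5% of levels trimmed from each end), which lay between 1.00 and 1.11 at 50 days and between 0.948 and 0.972 at 3 days. Genes with a scaled mean of at least 1 FPKM (8742) were fitted as log2(value + 1) with limma 3.58.1 in R 4.3.3, with age as the only term and a mean-variance trend. P-values were adjusted by Benjamini-Hochberg over all genes tested, with a threshold of 0.05. A log2 change is 50 days over 3 days on this scale and understates changes near 1 FPKM. Printed levels and SD are the deposited ones, and ratios of means are of scaled values. The procedure was run on simulated data with equal spread in all genes and few changed genes. That run did not challenge the scaling between libraries, on which the direction of small changes rests. Symbols were matched to the Ensembl BDGP6.54 annotation (10896 directly, 986 through a synonym, 41 not), which gave positions, exon lengths and overlaps. Alternatives were other scalings, pseudocounts, filters and models, and each library left out. The factors, lists and tests were chosen with earlier results of these data known. Values per library are given for factors past the threshold and for the most abundant of each class. They are also given for eIF4G2 and eEF5, which are neither. Of related lists, the largest changes past the threshold are named, up to 4 a list, and orb2, TyrRS and Thor were named after their values were seen. Listed genes were looked up by symbol, and a gene can stand in the table under another one. Symbols not found were Larp1, cup, Nat1, Dhps, Dph1, Dph2, Dph3, Dph4, Dph6, Znf598, mEFG2 and Mst84Da among the lists. Among the factors they were eIF2A, eIF3d2, eIF4E5 and eIF4G1. The genes larp and CG8005 were tested under those symbols.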

Additional observations from a re-analysis of the deposited data

How the results depend on the processing

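Between 10 and 21 factors were called when 1 library was left out, against 17 in the fit reported, with 6 to 14 higher. Over these fits the calls numbered 0 to 2 for start codon factors (2 as reported), 0 to 1 for eIF2B (1), 1 to 4 for elongation factors (2), 1 to 2 for release factors (2), 1 to 2 for ribosome-associated factors (2), 3 to 5 for regulators (5), 0 to 1 for hypusine and diphthamide enzymes (0), 0 to 1 for ribosome rescue genes (1), 5 to 9 for tRNA synthetases (8) and 0 to 2 for mitochondrial factors (2). With unscaled values 6 factors were higher, with 0 calls for start codon factors, 0 for eIF2B, 1 for ribosome-associated factors, 0 for rescue genes and 5 for synthetases. With every library rescaled to the same sum, 1 factor was higher and 16 were lower, with 1 call for start codon factors, 0 for eIF2B, 9 for eIF3, 1 for elongation, 1 for release, 0 for ribosome-associated factors, 2 for rescue genes, 2 for synthetases and 4 for mitochondrial factors. This scaling put the median of all genes at -0.26, against -0.0011 with the trimmed-mean factors, which hold the bulk of genes near no change by construction. Which scaling lies closer to the RNA amounts in the heads was not tested. With no filter eIF2B had 0 calls, and with no mean-variance trend the mitochondrial factors had 1. With the length trend removed, an alternative chosen after seeing the data, eIF3 had 5 calls and the regulators 8.

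Replicate numbers gave no sign of pairing: the deviations of same-numbered libraries correlated at -0.209, -0.104 and -0.235, and no library correlated best with its own number. With 3 libraries per age these values cannot exclude a shared collection or batch, and the labels name none. With the replicate block 13 factors were called in place of 17, with 0 calls for eIF2B, 1 for elongation, 1 for release, 0 for rescue genes and 0 for mitochondrial factors.

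No called factor changed sign, but 14 uncalled ones did, in 24 values. With unscaled values these were eIF1A (-0.04), eIF2gamma (-0.03), eIF5 (-0.04), eIF3c (-0.06), eIF3d1 (-0.03), eIF3f1 (-0.02) and eEF2 (-0.06). With the same sum they were eIF1A (-0.21), eIF2alpha (-0.13), eIF2gamma (-0.21), eIF5 (-0.21), eIF5B (-0.0039), eIF2Balpha (-0.02), eIF2Bbeta (-0.13), eIF2Bepsilon (-0.02), eIF3c (-0.23), eIF3d1 (-0.21), eIF3f1 (-0.19), eEF2 (-0.24) and Rack1 (-0.05). With 1 library left out eIF5 ranged from -0.03 to 0.18, and was at -0.01 when 50-day replicate 2 was left out. In the same fits eIF2Bgamma ranged from -0.08 to 0.04, and was at 0.02 when 50-day replicate 3 was left out. Of the 30 uncalled factors 15 were called in some alternative. Depth is not stated, and factors under 1 FPKM were not tested. With 3 libraries per age and only 2 ages, the course between them was not measured.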
